A study of Mus musculus with 22 samples.

Results

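The SRCAP complex places the histone variant H2A.Z into nucleosomes, and Anp32e is a chaperone that takes it out. Messenger RNA levels of the genes for both sides of this exchange are described here in mouse preimplantation embryos, with and without knockdown (KD) of H2A.Z. The genes were chosen by symbol: Srcap, Actr6, Znhit1, Vps72, Yeats4, Dmap1, Ruvbl1, Ruvbl2 and Actl6a for the complex, and Anp32e for the chaperone. Each of the 10 symbols was found once among the 55335 genes of the table.

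The study set out to follow gene expression in embryos depleted of H2A.Z, using 22 RNA-seq libraries that each pooled 15 embryos. Control and KD embryos alike were offspring of superovulated B6D2F1 females 8 weeks old mated with B6D2F1 males, and the labels give no allele for either group. KD embryos received about 10 pL of siRNAs against H2A.Z, 20 µM, as zygotes at pronuclear stage 3, 20 to 22 h after hCG. The treatment of the control embryos of these libraries is not stated in the labels or the methods. Collection was at 43 to 44 h after hCG for the 2-cell stage (4 control libraries with replicate numbers 1, 2, 4 and 5, and 3 KD libraries, 1, 2 and 4). Morulae were taken at 78 h (4 control, 1, 2, 7 and 8, and 3 KD, 1, 2 and 6), and blastocysts at 94 h (4 control and 4 KD, 1, 4, 5 and 6 in each). Below, the values of a group follow the order of these numbers. Each library is a pool of whole embryos, so blastocyst values mix trophectoderm with inner cell mass, and a lower level may come from fewer cells of a type or from less RNA per cell, which cannot be told apart. The siRNAs act on messenger RNA, and no protein was measured in these data.

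As background, SRCAP is a chromatin remodeller of the INO80 family that uses ATP to swap the H2A dimers of a nucleosome for dimers that carry H2A.Z, mainly next to promoters. Several of its subunits also belong to the related TIP60-p400 and INO80 complexes. Anp32e binds H2A.Z and strips it from nucleosomes, and mouse embryos without H2A.Z die early in development.

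Levels are FPKM, fragments per kilobase of gene and scaled to the fragments of the library, which makes each value a share of the library and not an amount per embryo. The FPKM of a library summed to between 423915 and 722576, and 10143 to 12090 genes reached at least 1 FPKM. The number of reads behind a value is unknown, and the error given throughout is the spread among the libraries of a group. Within a group, the mean correlation of a library with the others across genes was 0.970 to 0.988. Stage markers followed the labels. The 5 markers of the 2-cell stage summed to 533, 484, 359 and 303 FPKM in control 2-cell libraries and to 7.12, 5.14, 14.3 and 15.7 in control morulae, and Tcstv3 was the most abundant of them. The 5 trophectoderm markers summed to 7.19, 9.92, 14.9 and 11.6 in control 2-cell libraries, where Cdx2 was at 0, and to 989, 1466, 1303 and 981 in control blastocysts, with Krt18 the most abundant. The 7 markers of cumulus and granulosa cells summed to at most 0.160 FPKM and the 3 of sperm to at most 1.24 in any library.

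The target of the KD was measured in the same libraries. H2afz, the main H2A.Z gene, had 1244, 1236, 905 and 1178 FPKM in control and 415, 139 and 112 in KD 2-cell embryos. It had 1158, 1336, 1511 and 1421 in control and 30.3, 25.7 and 29.0 in KD morulae, and 2656, 2431, 1945 and 2055 in control and 64.2, 67.2, 53.2 and 57.6 in KD blastocysts. The KD libraries lay below all controls at each stage, and the first 2-cell KD library kept the most. At that stage the log2 difference of H2afz was -2.53 (adjusted p = 0.543), and without KD replicate 1 it was -3.12 (adjusted p = 9.07e-04). H2afv, the other H2A.Z gene, had 111, 118, 96.8 and 113 FPKM in control and 97.6, 85.4 and 83.7 in KD 2-cell embryos, 97.3, 113, 100.0 and 92.5 in control and 12.9, 11 and 9.90 in KD morulae, and 49.9, 62.0, 54.5 and 63.5 in control and 19.9, 16.9, 10.6 and 13.9 in KD blastocysts. Its groups were apart in morulae and blastocysts.

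Between the 2-cell and morula stages of control embryos, 4 subunits came up from very low levels. Ruvbl2, an ATPase of the AAA+ class, had 6.70, 9.55, 15.9 and 15.4 FPKM in 2-cell libraries and 193, 176, 176 and 192 in morulae, 15.5 times more on average. Dmap1, a subunit shared with TIP60-p400, had 1.39, 1.73, 1.26 and 2.77 and then 34.8, 28.9, 33.3 and 33.6, 18.3 times more. Znhit1, a zinc finger subunit needed for the exchange, had 6.15, 6.07, 3.88 and 4.74 and then 68.4, 73.0, 47.2 and 53.5. These were the 3 genes with the largest rises of the 10. Vps72, which holds the H2A.Z dimer, had 3.64, 4.54, 5.35 and 7.32 and then 40.9, 37.5, 19.3 and 15.4, with morula control replicates 1 and 2 well above replicates 7 and 8. No library of either stage overlapped for these 4 genes.

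On the log2 scale of scaled FPKM plus 1, tested with limma, the differences between control morulae and 2-cell embryos were 3.91 (SE 0.21, adjusted p = 8.97e-09) for Ruvbl2, 3.60 (SE 0.19, adjusted p = 6.07e-09) for Dmap1, 3.29 (SE 0.20, adjusted p = 2.53e-08) for Znhit1 and 2.15 (SE 0.27, adjusted p = 1.12e-05) for Vps72. Actl6a, an actin-like subunit shared with INO80 and BAF complexes, also rose, by 0.59 (adjusted p = 0.0165). Without 2-cell control replicate 1, which was its lowest library, that difference was 0.35 (adjusted p = 0.0542). Anp32e fell by 0.80 (adjusted p = 4.81e-04), Srcap, the ATPase that gives the complex its name, fell by 0.78 (adjusted p = 0.00509), and Yeats4, a reader of acetylated histone tails, fell by 0.37 (adjusted p = 0.0421). The call for Yeats4 was lost without 2-cell control replicate 1 at -0.30 (adjusted p = 0.0779) and without morula control replicate 1, 2, 7 or 8, at adjusted p-values of 0.0869, 0.116, 0.132 and 0.0862. Actr6, an actin-related subunit that works with Znhit1, and Ruvbl1, the partner ATPase of Ruvbl2, did not pass and overlapped between the stages, with differences of 0.31 (adjusted p = 0.192) and -0.26 (adjusted p = 0.148). The difference of Actr6 passed without morula control replicate 1, at 0.51 (adjusted p = 0.0224).

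In all, 5 of the 10 genes rose and 3 fell between these stages, and 4 of the passed differences were over 2-fold. Of all 13655 genes tested, 43% rose, 40.3% fell and 62.2% passed with over 2-fold, so the number of members that changed is near that of genes at large. The median difference of the members was 0.45, against 0.10 for all genes. From control morula to control blastocyst, 0 of the 10 rose and 5 fell, of which 1 fell over 2-fold, while 27.6% of the 11849 genes tested rose, 28.8% fell and 26.2% passed with over 2-fold. The median of the members was -0.41, against -0.02 for all genes. No chance test of these counts was made, and markers of cell types changed in the same comparison.

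Vps72 fell the most into the blastocyst, from 40.9, 37.5, 19.3 and 15.4 FPKM in control morulae to 3.48, 8.20, 12.3 and 8.01 in control blastocysts, a difference of -1.77 (SE 0.32, adjusted p = 5.57e-04). Znhit1 fell from 68.4, 73.0, 47.2 and 53.5 to 23.6, 44.2, 29.7 and 35.4, or -0.95 (SE 0.19, adjusted p = 0.00114). Ruvbl2, Ruvbl1 and Actl6a differed by -0.75 (adjusted p = 0.00153), -0.67 (adjusted p = 0.00418) and -0.50 (adjusted p = 0.00562), and the morula and blastocyst controls did not overlap for any of these 5 genes. Blastocyst control replicate 1 was the lowest library of its group for 8 of the 10 members as deposited, all but Actr6 and Anp32e, and it enters both these falls and the KD differences in blastocysts. Without it the same 5 members fell. With all libraries kept, the difference of Dmap1 was -0.31 (adjusted p = 0.0904), which did not pass. In the same fit Actr6, Srcap, Anp32e and Yeats4 had -0.32, 0.20, 0.082 and 0.0074, with adjusted p-values of at least 0.246.

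**Figure D1:**
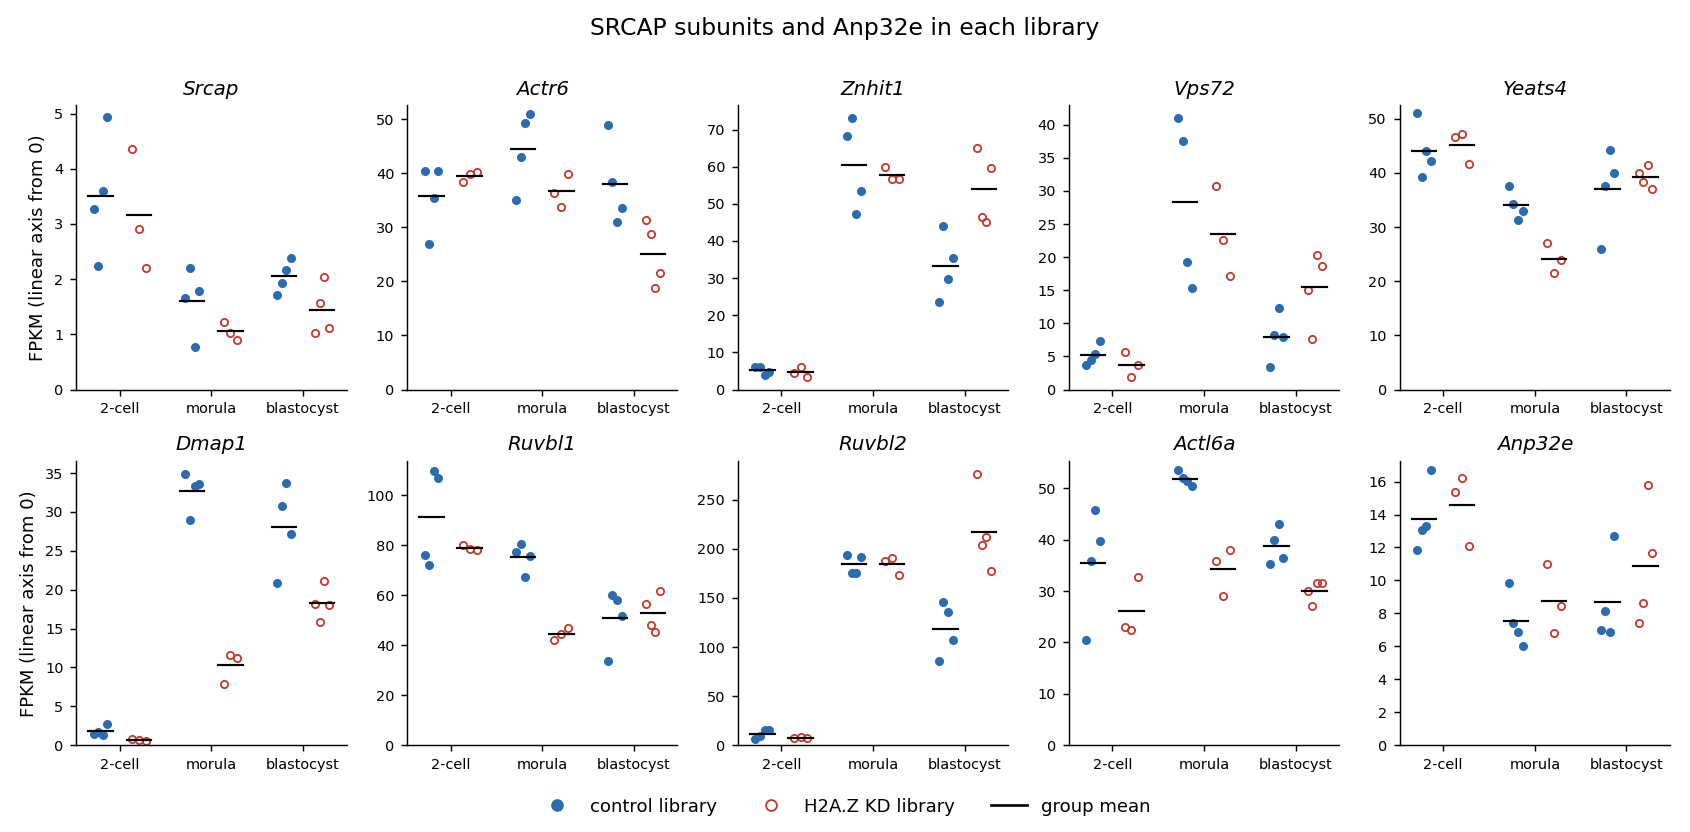
FPKM of the 10 genes in each of the 22 libraries, by stage, with filled points for control and open points for H2A.Z KD libraries and a line at each group mean. Each axis starts at 0. KD morulae lie below all control morulae for Dmap1, Ruvbl1, Yeats4 and Actl6a, and KD blastocysts lie above all control blastocysts for Ruvbl2.

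FPKM are corrected for length, so levels can be set beside each other. Ruvbl1 led in control 2-cell embryos with 91.3 ± 19.8 (SD, n = 4), apart from every other member. Yeats4, Actr6 and Actl6a followed at 44.1, 35.7 and 35.5, with overlapping libraries, then Anp32e and Ruvbl2 at 13.7 and 11.9. Vps72, Znhit1, Srcap and Dmap1 were lowest, at 5.21, 5.21, 3.51 and 1.79, and each overlapped the next. In control morulae Ruvbl2 led with 184 ± 9.71 (SD, n = 4), and the order went on through Ruvbl1, Znhit1, Actl6a, Actr6, Yeats4, Dmap1 and Vps72 with overlap between neighbours, before Anp32e at 7.54 and Srcap at 1.61, which stood apart. In control blastocysts Ruvbl2, at 119 ± 27.2 (SD, n = 4), and Ruvbl1, at 51.0, again came first, Anp32e and Vps72 overlapped at 8.67 and 8.0, and Srcap was last at 2.06. The same genes headed and closed the order in KD embryos, with Ruvbl1 at 78.9 and Dmap1 at 0.667 in 2-cell libraries, Ruvbl2 at 184 and Srcap at 1.05 in morulae, and Ruvbl2 at 217 and Srcap at 1.44 in blastocysts.

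Against control, 5 of the members changed in KD embryos at some stage, and Dmap1 fell in both morulae and blastocysts. At the 2-cell stage 0 of the 10 members and 0% of the 12160 genes tested passed with limma (701 genes had an unadjusted p under 0.05, and the smallest adjusted p was 0.543). Control and KD libraries were apart for 1 member, Dmap1, and for 6.93% of all genes. In morulae 2 members fell, Dmap1 and Ruvbl1, and 0 rose, where 9.04% of the 10989 genes tested fell and 4.23% rose, and 1 member passed with over 2-fold, against 3.52%. The groups were apart for 4 members, against 28.2% of genes. In blastocysts 3 members rose, Vps72, Ruvbl2 and Znhit1, and Dmap1 fell, with 16.7% of the 11828 genes tested up and 19.8% down. No member passed with over 2-fold, against 13.7% of genes, and the groups were apart for 4 members, against 35.5%. With 10 genes, none of these shares sets the members apart from the other genes.

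The median KD difference of the members was -0.11 at the 2-cell stage, -0.19 in morulae and 0.10 in blastocysts, against 0.00, 0.02 and 0.00 for all genes. In morulae the counts moved with the scaling between libraries. FPKM as deposited shift the median of all genes by -0.10, and then 281 genes rose and 1553 fell (15.3% of those passing rose), against 465 and 993 (31.9%) after scaling. With FPKM as deposited, 4 members fell in morulae, Actl6a at -0.59 (adjusted p = 0.0136) and Yeats4 at -0.48 (adjusted p = 0.0358) besides Dmap1 and Ruvbl1. The count of 2 became 1 without morula control replicate 2 or 8 or KD replicate 1 or 2, and the count of 4 in blastocysts became 2 without KD replicate 1 or 6. The 1458 genes that passed in morulae became 910 without control replicate 7, 855 without control replicate 8, 579 without KD replicate 1 and 551 without KD replicate 2, and 412 with no filter. They became 1744 without control replicate 1, and 2038 with the span of replicate numbers (low or high, set out below) as a term. In each of these last fits 3 members fell, Actl6a besides Dmap1 and Ruvbl1. In 2-cell embryos, 1 gene passed without control replicate 2 and 3 without KD replicate 1.

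**Figure D2:**
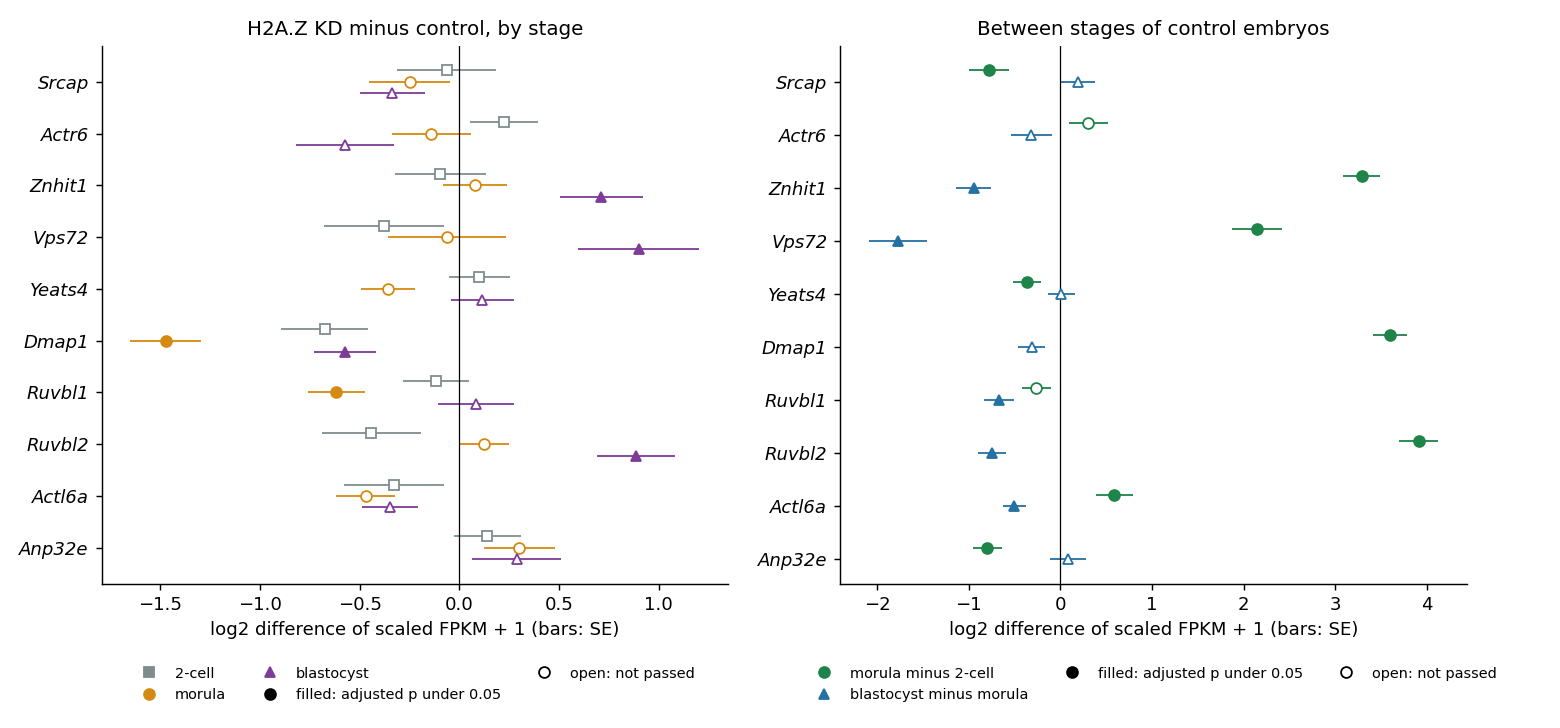
Log2 differences of scaled FPKM plus 1 with standard errors from limma, on the left H2A.Z KD minus control at each stage and on the right control morula minus 2-cell and control blastocyst minus morula. Filled symbols have an adjusted p under 0.05. On the left the symbol farthest from 0 is Dmap1 in morulae, at -1.47.

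Dmap1, which binds DNA methyltransferase 1 and sits in SRCAP as well as in TIP60-p400, had the lower mean in KD embryos at each stage. At the 2-cell stage it had 1.39, 1.73, 1.26 and 2.77 FPKM in control and 0.775, 0.678 and 0.549 in KD libraries, in morulae 34.8, 28.9, 33.3 and 33.6 against 7.91, 11.6 and 11.2, and in blastocysts 20.8, 30.7, 33.7 and 27.1 against 18.2, 15.8, 21.1 and 18.0. Every KD library was below every control library at the 2-cell and morula stages. In blastocysts control replicate 1 was at the level of the highest KD library as deposited, and the groups were apart after scaling. Mean Dmap1 was 3.18 times lower in KD morulae and 1.54 times lower in KD blastocysts. The log2 difference was -1.47 (SE 0.18, adjusted p = 0.00165) in morulae and -0.57 (SE 0.16, adjusted p = 0.0126) in blastocysts, and at the 2-cell stage it was -0.68 (SE 0.22, adjusted p = 0.828), which did not pass. Libraries fall into low replicate numbers (1 and 2, or 1 in blastocysts) and higher ones. In morulae, deviations from the group means correlated between control and KD libraries at 0.0944 to 0.347 within these ranges. Across the ranges they correlated at -0.278 to -0.0945. The signs were the same for 2-cell KD replicates 1 and 4, KD replicate 2 had -0.0211 to 0.0146, and blastocysts were mixed. The labels do not say what the ranges stand for, and the main fits hold no term for them. Within the low numbers the morula difference of Dmap1, from FPKM as deposited, was -1.63, and within the high numbers -1.49. In blastocysts it was -0.19 for replicate 1, a single pair of libraries, and -0.71 for the others.

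The KD difference of Dmap1 was itself less negative in blastocysts than in morulae, by 0.87 (SE 0.23, adjusted p = 0.0200) in a limma fit over both stages. This was the 1 member of 10 that passed for the difference between stages, where 11.7% of the 12727 genes tested passed, 1495 in all, 962 without morula KD replicate 1 and 988 with no filter. Without morula KD replicate 1, the lowest Dmap1 library of its group, it was 0.68 (adjusted p = 0.0645), which did not pass. FPKM as deposited shift the median of all genes in this fit by 0.12, and Ruvbl2 and Ruvbl1 then passed too, at 0.88 (adjusted p = 0.0217) and 0.82 (adjusted p = 0.0345). After scaling they had 0.72 (adjusted p = 0.0620) and 0.66 (adjusted p = 0.0819). Ruvbl2 passed without blastocyst control replicate 4, at 0.81 (adjusted p = 0.0477), or KD replicate 6, at 0.82 (adjusted p = 0.0462), and Ruvbl1 without blastocyst KD replicate 5, at 0.79 (adjusted p = 0.0342), so the count of 1 became 2 in these fits and 0 without morula KD replicate 1. The median over the 10 members was 0.51, against -0.01 for all genes. Of the other members, Vps72, Znhit1 and Yeats4 had 0.92 (adjusted p = 0.211), 0.59 (adjusted p = 0.169) and 0.44 (adjusted p = 0.158), so a KD difference that passed for Vps72 and Znhit1 in blastocysts alone is not shown to differ from that in morulae.

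Ruvbl1 and Ruvbl2 form a joint ring in SRCAP, INO80, TIP60-p400 and the R2TP chaperone. Ruvbl1 had 77.3, 80.3, 67.1 and 75.8 FPKM in control and 42.0, 44.7 and 46.9 in KD morulae, all KD libraries below all controls, and 33.8, 60.3, 58.0 and 51.8 against 56.6, 48.1, 45.3 and 61.6 in blastocysts, where the groups overlapped. Ruvbl2 had 193, 176, 176 and 192 against 188, 191 and 173 in morulae, overlapping, and 85.7, 145, 136 and 108 in control and 276, 204, 212 and 177 in KD blastocysts, where all KD libraries were above all controls. At the 2-cell stage Ruvbl1 had 76.3, 72.2, 109.9 and 107 against 79.9, 78.5 and 78.2, and Ruvbl2 6.70, 9.55, 15.9 and 15.4 against 7.01, 8.36 and 7.60, with overlap for both. In morulae the difference of Ruvbl1 was -0.62 (SE 0.14, adjusted p = 0.0204), and that of Ruvbl2 was 0.12 (adjusted p = 0.542), turning to -7.03e-04 with FPKM as deposited. In blastocysts Ruvbl2 rose by 0.88 (SE 0.20, adjusted p = 0.00425), while Ruvbl1 had 0.083 (adjusted p = 0.768), and -0.052 without control replicate 1.

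The call for Ruvbl1 in morulae was lost without control replicate 2, at -0.58 (adjusted p = 0.0504), control replicate 8, at -0.58 (adjusted p = 0.0548), KD replicate 1, at -0.54 (adjusted p = 0.0920), or KD replicate 2, at -0.62 (adjusted p = 0.0782), and with no filter on low values (adjusted p = 0.0558). Its difference from FPKM as deposited was -0.85 within low replicate numbers and -0.59 within high ones. That of Ruvbl2 in blastocysts was 1.67 for replicate 1 and 0.61 for the other numbers. The ratio of Ruvbl1 to Ruvbl2 FPKM was 11.4, 7.56, 6.89 and 6.96 in control and 11.4, 9.39 and 10.3 in KD 2-cell libraries. It was 0.40, 0.457, 0.382 and 0.395 in control and 0.224, 0.234 and 0.271 in KD morulae, and 0.394, 0.414, 0.427 and 0.482 in control and 0.205, 0.236, 0.214 and 0.348 in KD blastocysts. So Ruvbl1 was in excess in 2-cell embryos and Ruvbl2 afterwards, and the ratio was lower in each KD library than in each control library of morulae and blastocysts. This ratio was not tested. A copy of part of Ruvbl1, the gene Gm5837, holds 32.6% of its 100-base words but was low, at 2.94 and 1.88 FPKM on average in control and KD morulae.

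Vps72 and Znhit1 act where the H2A.Z dimer meets the remodeller. In blastocysts Vps72 had 3.48, 8.20, 12.3 and 8.01 FPKM in control and 15.1, 7.67, 20.3 and 18.7 in KD libraries, and Znhit1 had 23.6, 44.2, 29.7 and 35.4 against 65.1, 46.4, 45.2 and 59.7. For Vps72, 3 of the 4 KD libraries were above all controls, and the groups overlapped through KD replicate 4. For Znhit1 the KD libraries lay above the controls as deposited, by a narrow margin over control replicate 4, and overlapped them after scaling. Vps72 rose by 0.90 (SE 0.30, adjusted p = 0.0348) and Znhit1 by 0.71 (SE 0.21, adjusted p = 0.0181). In morulae the control and KD libraries of both genes overlapped, with 40.9, 37.5, 19.3 and 15.4 against 30.8, 22.6 and 17.1 for Vps72 and 68.4, 73.0, 47.2 and 53.5 against 60.0, 56.8 and 56.7 for Znhit1. Their morula differences were -0.062 and 0.0803 (adjusted p = 0.908 and 0.765), and that of Znhit1 turned to -0.043 with FPKM as deposited.

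The Vps72 call in blastocysts was the less steady of this pair. It was lost without control replicate 1, at 0.64 (adjusted p = 0.0928), control replicate 4, at 0.93 (adjusted p = 0.0616), control replicate 6, at 0.92 (adjusted p = 0.0593), KD replicate 1, at 0.86 (adjusted p = 0.0778), KD replicate 5, at 0.80 (adjusted p = 0.0925), and KD replicate 6, at 0.79 (adjusted p = 0.0930). It was also lost with FPKM as deposited (adjusted p = 0.0618) and with no filter on low values (adjusted p = 0.154). The Znhit1 call was lost without KD replicate 1, at 0.59 (adjusted p = 0.0525), KD replicate 6, at 0.67 (adjusted p = 0.0514), and with no filter (adjusted p = 0.0731). From FPKM as deposited, the difference of Vps72 was 1.85 for replicate 1 and 0.57 for the other numbers, and that of Znhit1 was 1.42 and 0.47. The replicate 1 control library was lowest in both genes.

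For Actr6 and Yeats4 the KD calls depended on the settings. Actr6 had 49.0, 38.3, 31.0 and 33.6 FPKM in control and 31.3, 28.8, 18.8 and 21.6 in KD blastocysts, where KD replicate 1 lay within the controls, and its difference was -0.57 (adjusted p = 0.0865), which did not pass. It passed with FPKM as deposited, at -0.58 (adjusted p = 0.0403), and with the span of replicate numbers (low or high) as a term (adjusted p = 0.0325). Actr6 in morulae had 35.0, 42.9, 49.3 and 50.9 against 36.3, 33.8 and 39.8, with overlap. Yeats4 had 37.5, 34.4, 31.4 and 32.9 in control and 27.0, 21.5 and 24.0 in KD morulae, with each KD library under each control, and a difference of -0.36 (adjusted p = 0.106), which did not pass but passed with FPKM as deposited, at -0.48 (adjusted p = 0.0358). In blastocysts it had 26.0, 37.7, 44.2 and 40.0 against 40.0, 38.4, 41.5 and 37.0, which overlapped. At the 2-cell stage both genes overlapped between the groups, with 26.8 to 40.3 for Actr6 and 39.3 to 51.0 for Yeats4 over all 7 libraries.

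Actl6a had the lower mean in KD embryos at all stages, and its KD calls depended on the settings too. It had 53.6, 52.0, 51.5 and 50.4 FPKM in control and 35.9, 29.0 and 38.0 in KD morulae, 35.3, 39.9, 43.1 and 36.5 against 30.0, 27.1, 31.5 and 31.5 in blastocysts, and 20.4, 35.8, 45.8 and 39.8 against 23.0, 22.4 and 32.8 in 2-cell embryos. The groups were apart in morulae and blastocysts and overlapped in 2-cell embryos. The differences were -0.47 (adjusted p = 0.0608) in morulae and -0.35 (adjusted p = 0.0736) in blastocysts, which did not pass. In morulae it passed with FPKM as deposited, with the span of replicate numbers as a term (adjusted p = 0.0391), without control replicate 1, at -0.51 (adjusted p = 0.0396), and without KD replicate 6, at -0.57 (adjusted p = 0.0474). In blastocysts it passed with no filter (adjusted p = 0.0348). Mrpl47, a mitochondrial ribosomal protein gene on the other strand, shares 452 exon bases with Actl6a. Since the reads carry no strand, reads there could count for either gene. Mrpl47 averaged 30.0 FPKM in control and 14.1 in KD morulae, and 53.1 and 18.1 in blastocysts, and its part in the values of Actl6a was not tested.

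Srcap itself was the lowest member in morulae and blastocysts. It had 3.27, 2.23, 3.60 and 4.94 FPKM in control and 4.35, 2.91 and 2.21 in KD 2-cell embryos, 1.67, 2.20, 0.778 and 1.79 against 1.23, 1.03 and 0.899 in morulae, and 1.72, 1.93, 2.17 and 2.39 against 1.03, 1.57, 2.04 and 1.12 in blastocysts. The groups overlapped at each stage as deposited, and in blastocysts they were apart after scaling. Its KD differences were -0.064 at the 2-cell stage, -0.25 in morulae and -0.34 in blastocysts, with adjusted p-values of 0.974, 0.437 and 0.127. The values of Srcap are uncertain, because Gm42715, a protein-coding gene on the same strand, shares 9738 of its exon bases and 59.0% of its 100-base words. Gm42715 averaged 1.79 FPKM in control and 2.46 in KD morulae and 1.07 and 1.58 in blastocysts, higher in KD where Srcap was lower. The sum of both genes was 2.69 to 3.84 in control and 2.92 to 4.08 in KD morulae, and 2.52 to 3.44 and 2.46 to 3.87 in blastocysts, which overlap.

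Anp32e, on the removal side, did not pass in any KD comparison. It had 11.9, 13, 13.3 and 16.7 FPKM in control and 15.3, 16.2 and 12.1 in KD 2-cell embryos, 9.87, 7.42, 6.85 and 6.02 against 11, 6.81 and 8.46 in morulae, and 6.97, 8.15, 6.87 and 12.7 against 7.41, 8.61, 15.8 and 11.7 in blastocysts. Control and KD libraries overlapped at each stage. The differences were 0.14 (adjusted p = 0.895), 0.30 (adjusted p = 0.278) and 0.29 (adjusted p = 0.343), with standard errors of 0.17, 0.18 and 0.22. Its 1 passed change was the fall from the 2-cell stage to the morula in control embryos.

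For the 5 members that fell from control morulae to control blastocysts, the levels in KD blastocysts can be set beside both. Ruvbl2 averaged 184 FPKM in control morulae, 119 in control blastocysts and 217 in KD blastocysts. Znhit1 averaged 60.5, 33.2 and 54.1, Vps72 28.3, 8.0 and 15.4, Ruvbl1 75.2, 51.0 and 52.9, and Actl6a 51.9, 38.7 and 30.0. The mean in KD blastocysts thus lay above both control means for Ruvbl2, between them for Znhit1, Vps72 and, near the lower one, Ruvbl1, and below both for Actl6a. The comparisons between stages and between treatments share the control blastocysts, and no test was made of KD blastocysts against morulae.

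Markers of cell types moved in the same libraries. In blastocysts the trophectoderm markers summed to 989, 1466, 1303 and 981 FPKM in control and 581, 737, 774 and 597 in KD libraries. Of the 5 tested, Krt18, the most abundant, fell, at -1.02 (adjusted p = 0.00126), and Tfap2c rose, at 0.96 (adjusted p = 0.00674), and no marker of this list was at 0. The 5 markers of the 2-cell stage summed to 1.34, 2.54, 0.540 and 1.88 in control and 8.10, 17.5, 3.43 and 25.3 in KD blastocysts. Of these, 2 were tested and both rose, Zfp352 at 1.56 (adjusted p = 0.00157) and Tcstv3, the most abundant, at 2.01 (adjusted p = 0.0145), the latter not passing with no filter (adjusted p = 0.115). In morulae the 4 markers of the inner cell mass summed to 119, 131, 137 and 165 in control and 39.6, 32 and 49.4 in KD libraries. Nanog, the most abundant, fell, at -2.23 (adjusted p = 0.00647), and with no filter its adjusted p was 0.0719, and it was the 1 of 2 tested that passed. In blastocysts the same 4 markers summed to 109, 132, 219 and 131 in control and 135, 150, 274 and 194 in KD libraries, which overlap. Of 3 tested there, 2 were higher and 1 lower in KD, and 0 passed. Sox2 was at 0 in 1 KD morula library, and of the 2-cell markers Zscan4c was at 0 in 1 and Zscan4d in 2 control blastocyst libraries, and none was at 0 throughout a group. Their part in the KD differences of the members was not tested.

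The 3 blood markers summed to 3.63, 1.31, 1.16 and 2.65 FPKM in control and 7.77, 5.01 and 4.23 in KD morulae, and to 0.612, 1.05, 1.66 and 1.79 against 2.48, 3.71, 3.22 and 2.09 in blastocysts, with Hbb-bs at 0 in all of these libraries. Ptprc was at 0 in all control and KD morulae and all KD blastocysts, but not in every control blastocyst library. The sums of morulae and KD blastocysts are thus Hba-a1 alone. The 1 tested, Hba-a1, also the most abundant, rose in morulae, at 1.2 (adjusted p = 0.0172), and in blastocysts, at 0.79 (adjusted p = 0.00985). The morula call was lost without KD replicate 1, at 1.01 (adjusted p = 0.0719), without KD replicate 2, at 1.25 (adjusted p = 0.0525), and with no filter (adjusted p = 0.110). Their part in the results was not tested either. No primitive endoderm or oocyte marker passed between KD and control, with 1 and up to 4 genes tested, and no cumulus, granulosa or sperm marker passed the filter. At the 2-cell stage 0 markers passed with limma. Between stages of control embryos all 5 markers of the 2-cell stage and all 4 of the oocyte fell into the morula, led by Zfp352 (-5.57) and Oosp1 (-8.10). Trophectoderm markers rose there in 4 of 4 tested and inner cell mass markers in 2 of 2, led by Krt18 (4.74) and Nanog (6.44). Of the primitive endoderm markers Gata6 rose (3.47) and Gata4 fell (-2.11). From control morula to control blastocyst, where 5 members fell, 3 of 5 trophectoderm markers tested rose and 1 fell, led by Krt18 (3.57), Krt8 (3.5) and Tfap2c (-1.41). Of 3 inner cell mass markers tested Sox2 rose (1.21) and Pou5f1 fell (-1.24), and Tcstv3 (-2.31), Zp3 (-1.24) and Oosp1 (-0.90) fell. The part of these changes in the falls of the members was not tested.

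The related complexes share subunits with SRCAP, and their own genes were counted in the same way. Of 12 subunits of TIP60-p400 that SRCAP lacks, 1 fell and 0 rose in KD morulae, where Kat5, the acetyltransferase, was lower by a log2 difference of -1.29 (adjusted p = 0.00487), and 2 rose and 2 fell in KD blastocysts. The largest were those of Epc1, at 0.96 (adjusted p = 0.00153), Mbtd1, at 0.80 (adjusted p = 0.0241), and Mrgbp, at -0.68 (adjusted p = 0.00935). The call for Mbtd1 was lost without control replicate 1 (0.66, adjusted p = 0.0693), control replicate 4 (adjusted p = 0.0821), KD replicate 5 (adjusted p = 0.0564) and KD replicate 6 (adjusted p = 0.0626), and with no filter (adjusted p = 0.102). In control embryos 3 of the 12 rose and 7 fell from the 2-cell stage to the morula, led by Mbtd1 (-3.17), Epc2 (-2.23) and Ep400 (-1.57), the ATPase of that complex, and 3 rose and 3 fell into the blastocyst, led by Morf4l2 (1.25), Mbtd1 (-1.04) and Meaf6 (-0.90). The shares of all genes that rose and fell, given with the members' counts, apply to this list, to the next 3 and to the markers.

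Of 12 INO80 subunits that SRCAP lacks, 2 fell and 0 rose in KD morulae, Actr8 at -1.27 (adjusted p = 0.0200) and Mcrs1 at -0.66 (adjusted p = 0.0139). The Actr8 call was lost without KD replicate 1 (adjusted p = 0.0717), KD replicate 2 (adjusted p = 0.0515) and KD replicate 6 (adjusted p = 0.0530) and with no filter (adjusted p = 0.126), and the Mcrs1 call without KD replicate 1 (adjusted p = 0.0609) and KD replicate 2 (adjusted p = 0.0705). Of the 8 tested in blastocysts, Ino80e rose, at 2.03 (adjusted p = 8.83e-04), and Tfpt rose, at 0.73 (adjusted p = 0.0112). Actr8 fell there, at -0.54 (adjusted p = 0.0464), and was lost without control replicates 4, 5 and 6 and KD replicates 1, 4 and 5, at adjusted p-values of 0.0931, 0.114, 0.0995, 0.0958, 0.116 and 0.0662, and also with FPKM as deposited (adjusted p = 0.0819) and with no filter (adjusted p = 0.0947). From control 2-cell to morula 5 rose and 6 fell, led by Uchl5 (1.81), Mcrs1 (1.35) and Actr8 (1.24), and into the blastocyst 6 of 9 tested fell and 0 rose, led by Tfpt (-2.0), Mcrs1 (-1.35) and Ino80e (-1.10), the last not passing with no filter (adjusted p = 0.0862). Of all genes tested, 43% rose and 40.3% fell into the morula and 27.6% rose and 28.8% fell into the blastocyst.

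Among the other histone chaperones and H2A.Z readers reported here, Anp32a, Anp32b, Nap1l1, Nap1l4, Brd2 and Pwwp2a, 0 of 6 passed in KD morulae. In KD blastocysts Brd2, a bromodomain protein that reads acetylated histones, rose, at 1.02 (adjusted p = 0.00564), and Anp32b, a relative of Anp32e, rose, at 0.75 (adjusted p = 0.0112). Anp32b missed the threshold with no filter (adjusted p = 0.0510). In control embryos 2 of these 6 rose and 2 fell into the morula, with Anp32a, another relative, at 3.30 (adjusted p = 5.64e-08), Brd2 at -1.38 and Nap1l1 at 0.59, and 3 fell and 0 rose into the blastocyst, Anp32b at -0.75 (not passing with no filter, adjusted p = 0.0659), Brd2 at -0.64 and Nap1l1 at -0.57. Of 5 genes listed for the R2TP chaperone and its partners (Pih1d1, Rpap3, Telo2, Tti1 and Tti2), 0 passed in KD morulae with limma. Pih1d1 fell in KD blastocysts, at -0.68 (adjusted p = 0.00756). Pih1d1 alone rose into the control morula, at 1.41 (adjusted p = 2.43e-05), and 1 rose and 3 fell into the control blastocyst, led by Rpap3 (-1.14), Tti2 (-0.61) and Tti1 (-0.52). In 2-cell embryos 0 genes of these 4 lists passed between KD and control. For the genes of these lists and of the marker lists named as passed between KD and control, each KD library lay on one side of all controls, except for Mbtd1, Actr8 and Tcstv3 in blastocysts, where the groups overlapped. These genes were picked by their difference in the same libraries, so this adds nothing to the calls. Of all genes tested, the groups were apart for 28.2% in morulae and 35.5% in blastocysts.

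Over the 22 libraries and 15697 genes, the genes most like Srcap in log2 FPKM were Slc39a9, Cyb5d2 and Zfp830, with Pearson r of 0.907, 0.887 and 0.886. Those most like Anp32e were Dcp1a, Cltb and 2610507B11Rik, with 0.873, 0.869 and 0.868. Srcap and Anp32e had an r of 0.661 with each other. Among the other subunits Srcap was most like Yeats4, with 0.700, and least like Znhit1, with -0.788, and Anp32e was least like Dmap1, with -0.692. The libraries share stages and treatments, so these values describe the pattern over 6 groups and have no p.

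On GRCm38 (mm10), the members lie on 6 chromosomes. Actl6a (chromosome 3, 32706298 to 32726973), Vps72 (95111022 to 95123051) and Anp32e (95929246 to 95947390) share chromosome 3, each on the plus strand. Ruvbl2 (45421760 to 45438096, minus strand) and Srcap (127511983 to 127561219, plus strand) share chromosome 7, and Actr6 (89711971 to 89732295) and Yeats4 (117215221 to 117224507) share chromosome 10, both on the minus strand. Dmap1 lies on chromosome 4 (117674681 to 117682273, minus strand), Znhit1 on chromosome 5 (136982164 to 136988021, minus strand) and Ruvbl1 on chromosome 6 (88465409 to 88497572, plus strand). All 10 are annotated as protein-coding. Their identifiers in the table are ENSMUSG00000053877.12 for Srcap, ENSMUSG00000019948.4 for Actr6, ENSMUSG00000059518.14 for Znhit1, ENSMUSG00000008958.14 for Vps72, ENSMUSG00000020171.8 for Yeats4, ENSMUSG00000009640.11 for Dmap1, ENSMUSG00000030079.15 for Ruvbl1, ENSMUSG00000003868.14 for Ruvbl2, ENSMUSG00000027671.14 for Actl6a and ENSMUSG00000015749.12 for Anp32e.

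Promoter sequence is shown for 4 members whose KD difference passed, to let their starts be compared. RefSeq windows on GRCm38.p6, which cover 300 bases around a gene's start, were matched by symbol for 9 of the 10 members, all but Vps72, and Znhit1 and Actr6 have a pair of windows each. Both strands were searched for 6 motifs: the GC box GGGCGG, the CCAAT box CCAAT, the ETS core CCGGAA, the E-box CACGTG, the YY1 core AAGATGG and the TATA box TATAAA. Matches are in capitals in the strand of the gene, so a match on the other strand reads as its reverse complement, and 0 bases were shared by 2 motifs. Among 32851 windows, 35.7% held the GC box, 37.4% CCAAT, 14.9% the ETS core, 7.15% the E-box, 6.34% the YY1 core and 13.6% the TATA box. Of the 9 members, 5 held the GC box, 5 CCAAT and 3 the ETS core, and 1 each the E-box, the YY1 core and the TATA box. Dmap1 (chr4:117682176-117682475, minus strand) has 2 ETS cores. Ruvbl1 (chr6:88465159-88465458, plus strand) has a GC box, 2 CCAAT boxes and a TATA box, and Ruvbl2 (chr7:45434415-45434714, minus strand) has 2 GC boxes and 3 CCAAT boxes. The Znhit1 windows (chr5:136987910-136988209 and chr5:136986855-136987154, minus strand) overlap exons of Plod3, and the first holds an E-box and the second 2 ETS cores and a YY1 core. The RefSeq start of Ruvbl2 lies 3632 bases inside the gene as annotated in GENCODE. CpG pairs numbered 17 in Dmap1, 11 in Ruvbl1, 12 in Ruvbl2, and 10 and 18 in Znhit1, against a median of 7 over all windows. A match describes the letters and does not show that a factor binds there.
Dmap1: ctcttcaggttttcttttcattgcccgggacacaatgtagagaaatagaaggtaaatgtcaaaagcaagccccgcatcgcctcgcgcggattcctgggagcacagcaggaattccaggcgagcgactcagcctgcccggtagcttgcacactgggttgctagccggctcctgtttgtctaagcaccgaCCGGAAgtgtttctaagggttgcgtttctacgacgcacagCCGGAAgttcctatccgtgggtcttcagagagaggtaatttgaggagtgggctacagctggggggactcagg
Ruvbl1: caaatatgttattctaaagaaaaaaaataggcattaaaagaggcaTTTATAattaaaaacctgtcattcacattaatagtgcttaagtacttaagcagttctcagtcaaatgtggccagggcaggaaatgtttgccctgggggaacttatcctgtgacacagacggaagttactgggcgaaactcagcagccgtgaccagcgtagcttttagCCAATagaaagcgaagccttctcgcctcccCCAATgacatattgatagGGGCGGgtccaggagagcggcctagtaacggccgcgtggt
Ruvbl2: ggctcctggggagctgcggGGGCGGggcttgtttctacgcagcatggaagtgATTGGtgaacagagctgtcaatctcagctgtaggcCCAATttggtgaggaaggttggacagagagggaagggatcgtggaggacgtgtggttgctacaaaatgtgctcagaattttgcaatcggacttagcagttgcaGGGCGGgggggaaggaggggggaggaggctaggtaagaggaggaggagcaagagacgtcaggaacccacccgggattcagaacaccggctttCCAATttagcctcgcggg
Znhit1 first window: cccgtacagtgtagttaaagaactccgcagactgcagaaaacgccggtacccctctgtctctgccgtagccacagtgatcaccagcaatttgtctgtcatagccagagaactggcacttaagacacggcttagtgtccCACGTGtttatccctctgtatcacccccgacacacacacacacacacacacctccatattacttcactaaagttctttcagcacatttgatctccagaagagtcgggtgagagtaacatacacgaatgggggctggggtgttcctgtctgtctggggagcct
Znhit1 second window: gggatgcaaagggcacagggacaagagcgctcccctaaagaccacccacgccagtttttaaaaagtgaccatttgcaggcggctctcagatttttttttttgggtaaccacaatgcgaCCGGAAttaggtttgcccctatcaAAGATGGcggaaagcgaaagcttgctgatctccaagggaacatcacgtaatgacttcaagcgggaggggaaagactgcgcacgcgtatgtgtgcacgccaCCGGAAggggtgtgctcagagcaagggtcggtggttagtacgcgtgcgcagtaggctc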

How the data were processed

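Embryo RNA had been amplified with Smart-seq2 from polyadenylated RNA (16 to 18 cycles) and read as 150 bp pairs. With STAR, the authors aligned these to mm10 and deposited FPKM per gene from StringTie 2.1.4, and their DESeq2 counts were not used here. Within each fit, libraries were scaled by their median ratio to the geometric mean over genes. Genes needed 1 FPKM or more in 3 libraries or more of the fit, and log2 was taken after adding 1. Groups were compared with limma 3.58.1 (R 4.3.3; lmFit, eBayes with trend), with p-values adjusted by Benjamini-Hochberg over all genes tested, and a gene rose or fell at an adjusted p under 0.05. Tables and figures were made with Python 3.11.15, pandas 2.3.3, numpy 2.4.6 and matplotlib 3.10.9. Alternatives were FPKM as deposited, a pseudocount of 0.1, no filter, each library left out, the replicate number as a block and the span of replicate numbers as a term. The steps were tested on simulated data with 200 genes changed by a log2 difference of 1. In the KD fits of 2-cell embryos, morulae and blastocysts, 55%, 71% and 69% of them were recovered. Of the genes called, 2.65%, 4.05% and 6.12% were false. A change of that size can thus fail to pass. Besides the members and the H2A.Z genes, up to 3 genes with the largest passed difference were named from lists of TIP60-p400, INO80, chaperones and readers, R2TP and cell markers, and the 3 genes most like Srcap and like Anp32e. From the list of chaperones and readers, 1 gene is not reported here. The members and lists were chosen with earlier results of these data known. Read depth is not known from FPKM.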

Additional observations from a re-analysis of the deposited data

Results flagged for a closer look

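Dixon's gap test asked in 96 groups of 4 libraries whether the highest or lowest library stood apart, and chance picks out about 1 in 20 groups. It picked 6. The ratio of Ruvbl1 to Ruvbl2 was 11.4 in 1 control 2-cell library, replicate 1, above the other 3 controls. Gm5837, the partial copy of Ruvbl1, was 5.43 FPKM in 1 control 2-cell library. Summed primitive endoderm markers reached 28.0 FPKM in 1 control morula library and 20.3 in 1 control blastocyst library. Summed cumulus and granulosa markers, near 0 in all libraries, reached 0.0202 in 1 control morula and 0.0456 in 1 control blastocyst library.

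The KD difference itself differed between blastocysts and morulae, by a limma test of that difference, for 6 genes named in the text. It was higher in blastocysts by 0.87 for Dmap1 (adjusted p = 0.0200), 1.04 for H2afv (adjusted p = 0.0207), 1.59 for Ino80e (adjusted p = 0.0305), 1.28 for Tfpt (adjusted p = 0.00538), 1.10 for Tfap2c (adjusted p = 0.0235) and 2.49 for Nanog (adjusted p = 0.00202). Without morula KD replicate 1, Dmap1 had 0.68 (adjusted p = 0.0645) and Tfap2c 1.08 (adjusted p = 0.0556). Without morula KD replicate 6, H2afv had 0.99, with an adjusted p of 0.0500 that lies just past the threshold. Ino80e missed the threshold without morula control replicate 1 or 2 (adjusted p = 0.0587 and 0.0588), morula KD replicate 1, 2 or 6 (adjusted p = 0.0615, 0.0619 and 0.0578), blastocyst control replicate 4 (adjusted p = 0.0520) and blastocyst KD replicate 1 (adjusted p = 0.0599). With no filter H2afv, Ino80e and Tfap2c did not pass (adjusted p = 0.0659, 0.124 and 0.0748).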

How the results depend on the processing

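The differences of the 10 members were recomputed in 820 combinations of comparison, member and alternative, of which 750 kept direction and side of the threshold. Of 260 for differences that had passed, 234 kept both, 26 no longer passed and 0 turned. Of 560 for differences that had not passed, 16 passed and 28 turned. The cause was not tested. With FPKM as deposited, 4 members passed in morulae and 3 between the KD effects, and differences turned to -0.043 for Znhit1 and -7.03e-04 for Ruvbl2 in morulae and to 0.094 for Anp32e between KD effects. With no filter on low values 1 member passed in morulae. With a block for the replicate number, few degrees of freedom are left, and 0 passed between KD effects, Dmap1 with 0.86 (adjusted p = 0.0887). Actr6 passed in KD blastocysts (adjusted p = 0.0174). Differences turned to 0.074 for Srcap (2-cell KD), 0.021 for Actr6 and -0.11 for Znhit1 (morula KD), -0.18 for H2afz (control morula minus 2-cell), and 0.0073 for Srcap and 0.083 for Anp32e (KD effects). Srcap and Yeats4 then no longer passed between control 2-cell and morula, at -0.46 (adjusted p = 0.132) and -0.49 (adjusted p = 0.0775), nor did Nap1l1 (adjusted p = 0.143), nor H2afv, Ino80e and Tfap2c between KD effects (adjusted p = 0.0768, 0.0530 and 0.0593). Likeness of control and KD libraries was taken as the correlation of their deviations from the group means. The same-numbered control was the most alike for 2-cell KD replicates 1, 2 and 4, morula KD replicate 1 and blastocyst KD replicates 1 and 5. It was not for morula KD replicate 2 or blastocyst KD replicates 4 and 6. Same-numbered correlations were -0.111 to 0.354, and the labels state no pairing. The block is given here alone, and it could not be fitted for control blastocyst minus morula. With the span of numbers as a term, Yeats4 turned to -0.031 and Dmap1 passed, at -0.37 (adjusted p = 0.0402), between control morula and blastocyst. With each library left out in turn, 1 to 3 members passed in morulae, 2 to 4 in blastocysts and 0 to 2 between KD effects. The range was -0.27 to 0.092 for Srcap and -0.24 to 0.046 for Znhit1 (2-cell KD), -0.016 to 0.18 for Znhit1 and -0.27 to 0.11 for Vps72 (morula KD), -0.052 to 0.21 for Ruvbl1 (blastocyst KD), -0.0499 to 0.12 for Yeats4 and -0.081 to 0.20 for Anp32e (control blastocyst minus morula), and -0.22 to 0.062 for Srcap, -0.019 to 0.19 for Actl6a and -0.19 to 0.12 for Anp32e (KD effects). Depth is unknown, so the precision of low values such as those of Srcap and of 2-cell Dmap1 is not known beyond the spread of libraries.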
